A study of Mus musculus with 4 samples.

Results

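The TNF and NF-kB feedback genes described here are 10 of the 32285 genes in the matrices. They are the cytokine gene Tnf, the receptor genes Tnfrsf1a and Tnfrsf1b, and the inhibitor genes Tnfaip3 and Nfkbia. The others are Nfkbiz, which encodes a nuclear IkB protein, and the transcription factor genes Nfkb1, Nfkb2, Rel and Relb. All were taken by symbol and not by a cutoff on measured values, though earlier results of these data were known. All 10 were found in each sample. Single-cell RNA sequencing was carried out on CD45+ cells of the colonic lamina propria from 4 samples of mice on a C57BL/6 background, each a mixture of 3 mice. The study used AhR-/- mice, in which the aryl hydrocarbon receptor gene is disrupted in every cell, and AhR+/+ mice, but the labels give no genotype to a sample, so samples 1 to 4 are reported one by one and no genotypes were compared. All 4 samples share dextran sulfate sodium (DSS) colitis, for which mice drank water with 2% DSS over 7 days, and tissue was taken on day 8. No untreated sample was analysed here. The labels give an age of 10 weeks and the methods 8 weeks. The 3 mice of a sample cannot be separated, so differences between samples hold mouse, processing and genotype differences that cannot be told apart.

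TNF is a cytokine released by activated myeloid cells and lymphocytes, and it is a drug target in inflammatory bowel disease. It binds a broadly expressed type 1 receptor, encoded by Tnfrsf1a, and a type 2 receptor found mainly on leukocytes, encoded by Tnfrsf1b. Both receptors can activate NF-kB, a family of paired transcription factor subunits held in the cytoplasm by IkB proteins. NF-kB in turn switches on genes of its own inhibitors, among them Nfkbia and Tnfaip3, so that transcripts of these inhibitors are widely read as a sign of recent signalling.

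The matrices held 45229 cells, with 11425, 13730, 11581 and 8493 cells and 113806334, 135516016, 101579112 and 72509408 unique molecular identifiers (UMIs, one per captured transcript) in samples 1 to 4. After filters and removal of likely doublets 39553 cells were kept, and 24672 of them (62.4%) fell into 1 of 21 cell classes. A cell entered a class by UMIs of a set number of marker genes of that class and by few markers of other lineages, and no gene of the feedback set or of its wider pathway took part. The share given a class was 67.1%, 54.2%, 66.6% and 63.2% in samples 1 to 4. The median of UMIs per cell with a class was 4650 to 6310.5, and that of cells without one was 7240.5 to 10301. Each class was read only in samples with at least 50 of its cells, and 13 classes met this in at least 3 samples. Where classes were pooled for a comparison, the minimum held for the pool and not for each class in it. Pairs of samples had 23 to 49 barcodes in common, and no pair of libraries looked like a repeat of the other.

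Defining markers followed the classes, but cells were gated on such markers, so these levels describe the classes and are no independent check of them. Csf3r was at 614 to 785 CPM (UMIs of a gene scaled to a common total per class and sample) in the neutrophil class against at most 94.8 CPM in the monocyte class. C1qa, a macrophage gene, was at 1772 to 2729.5 CPM in the macrophage class and at 8.19 to 20.9 CPM in the neutrophil class. Fscn1, an actin-bundling protein of mature dendritic cells, was at 1206 to 2354 CPM in the Ccr7-positive dendritic class. Ptprc, which encodes CD45, was at 20.5 to 59.2 CPM in the fibroblast class and at 2263 to 2477 CPM in the neutrophil class, and the 621 fibroblast-class cells were present in spite of the CD45 bead selection. A sum of 10 genes that respond quickly to tissue handling (Fos, Fosb, Jun, Junb, Egr1, Ier2, Atf3, Dusp1, Hspa1a and Hspa1b) was 10043 to 12453 CPM in the fibroblast class, 5918 to 10012 CPM in the type 2 innate lymphoid class, 2832 to 5712 CPM in the macrophage class and 1055 to 2096 CPM in the neutrophil class. These genes share inducing signals with several genes of the feedback set, and their part in the results was not tested.

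The 10 genes lie on 10 chromosomes. On build GRCm38 with the GENCODE M21 annotation, Tnf spans chr17:35199381-35202007 on the minus strand, Nfkbia chr12:55489410-55492647 on the minus strand, Tnfaip3 chr10:19000910-19015657 on the minus strand and Rel chr11:23736847-23770970 on the minus strand. Nfkb2 spans chr19:46304320-46312385 on the plus strand and overlaps Psd and AC114539.1 on the opposite strand. Whether the counting used strand is not given in the sources used here, so for Nfkb2 alone reads of an opposite-strand gene cannot be told apart. The other genes of the set overlap no gene in the files.

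Promoter sequence is shown for genes of the set with a binding motif near the start, and for Tnf, because binding sites for NF-kB before the start are how this family is known to drive its own inhibitors. RefSeq gave a start on GRCm38.p6 for 7 of the 10 genes (not for Nfkbiz, Nfkb1 and Relb), and the 250 bases before each start were searched on both strands for the 10-base kappa-B consensus. The consensus occurred before at least 1 start of 4 of the 7 genes, Tnfaip3, Nfkbia, Nfkb2 and Rel, against 4.46% of 27025 genes and 3.9% of 32851 windows in the genome. No match was found in the windows of Tnf, Tnfrsf1a and Tnfrsf1b, which says only that these letters are not in those 250 bases. The whole windows of Nfkbia, Rel and, for contrast, Tnf follow, from the base farthest from the start to the base before it on the gene's strand, with matches of the consensus on either strand in capitals.
Nfkbia, chr12:55492648-55492897, minus strand: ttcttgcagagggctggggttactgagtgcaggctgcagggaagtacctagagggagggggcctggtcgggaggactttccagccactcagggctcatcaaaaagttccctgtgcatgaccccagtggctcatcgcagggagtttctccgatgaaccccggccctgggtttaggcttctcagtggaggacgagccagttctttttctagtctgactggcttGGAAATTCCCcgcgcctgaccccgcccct
Rel, chr11:23770970-23771219, minus strand: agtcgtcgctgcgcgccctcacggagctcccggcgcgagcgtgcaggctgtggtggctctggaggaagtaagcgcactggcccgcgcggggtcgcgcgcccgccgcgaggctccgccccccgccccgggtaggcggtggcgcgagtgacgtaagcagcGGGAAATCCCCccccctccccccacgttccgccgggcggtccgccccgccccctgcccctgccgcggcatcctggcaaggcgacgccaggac
Tnf, chr17:35202008-35202257, minus strand: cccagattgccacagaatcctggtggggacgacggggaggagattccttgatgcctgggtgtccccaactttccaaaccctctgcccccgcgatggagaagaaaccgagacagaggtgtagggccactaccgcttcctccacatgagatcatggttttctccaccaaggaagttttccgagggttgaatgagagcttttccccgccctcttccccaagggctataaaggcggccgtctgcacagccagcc

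The single match of Nfkbia lay 29 to 20 bases before the start. In Rel the matches overlapped, between 92 and 82 bases before the start, and most of this stretch matched on both strands. For Tnfaip3 and Nfkb2 the RefSeq start lies inside the GENCODE gene, so only the 30 bases that hold each match near the first listed start are shown. They come from 125 to 116 and 12 to 3 bases before the start of Tnfaip3, and from 39 to 29 and 11 to 2 bases before that of Nfkb2.
Tnfaip3, chr10:19015516-19015545, minus strand: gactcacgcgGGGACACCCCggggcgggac
Tnfaip3, chr10:19015411-19015440, minus strand: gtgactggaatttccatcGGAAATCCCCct
Nfkb2, chr19:46304689-46304718, plus strand: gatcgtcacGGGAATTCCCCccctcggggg
Nfkb2, chr19:46304707-46304736, plus strand: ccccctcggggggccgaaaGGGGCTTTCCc

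The intervals given are 95% exact Poisson intervals, which cover counting error only and neither mouse nor processing differences. Highest and lowest refer to the 13 classes read in at least 3 samples. A CPM of one gene is not compared with that of another. The plot of levels by class and sample sets out all 10 genes.

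**Figure D1:**
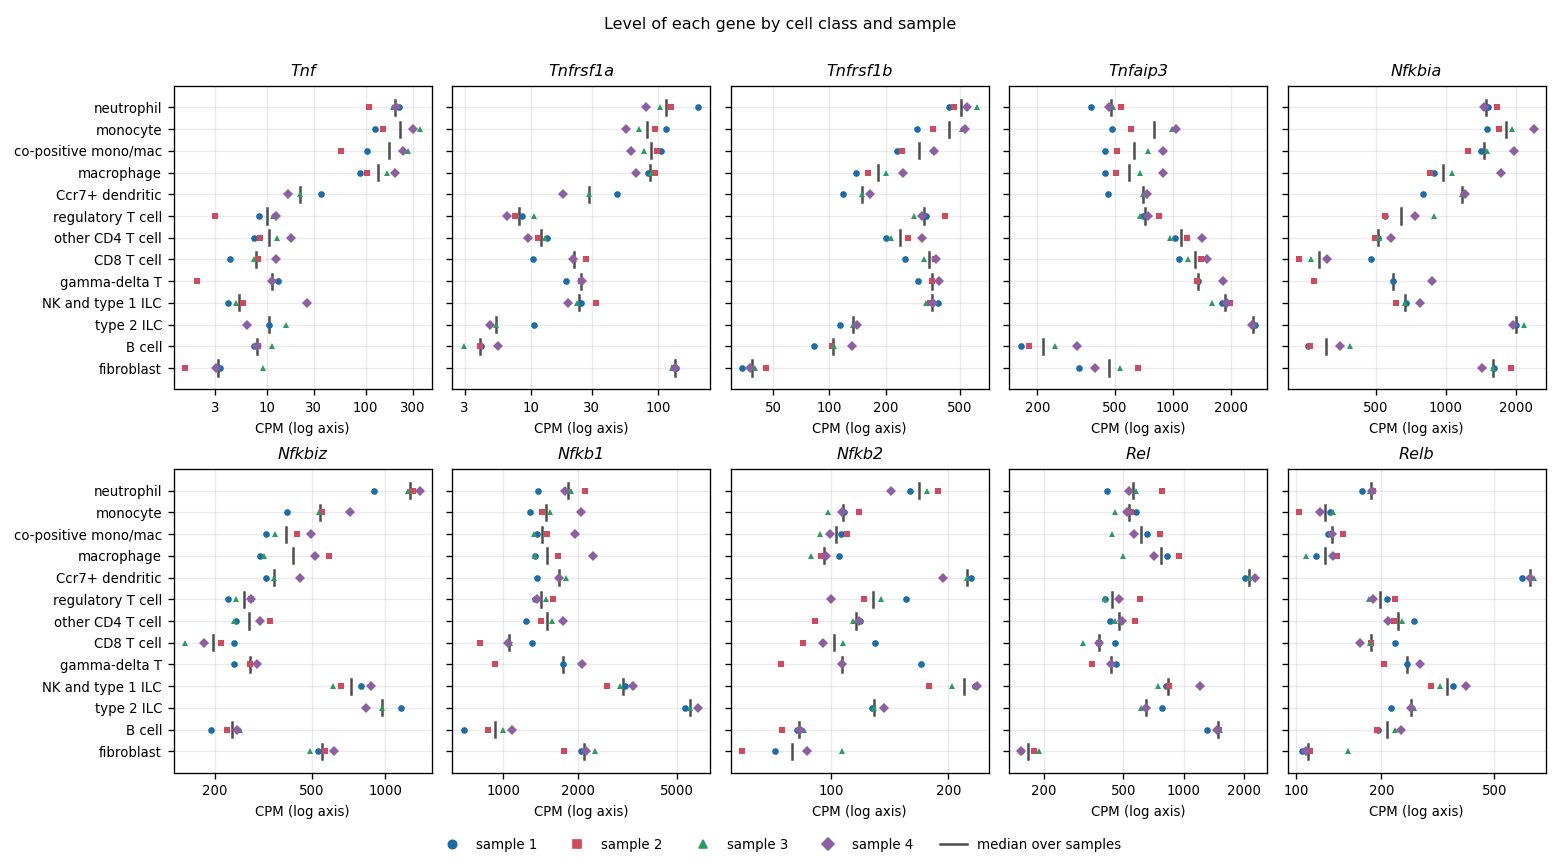
Level of each gene in CPM (log axis, own range in each panel) in the 13 cell classes with at least 50 cells in 3 or more samples, with 1 symbol per sample and a bar at the median over samples. Tnf was highest in the 4 myeloid classes at the top, Nfkb1 and Tnfaip3 in the type 2 innate lymphoid class, and Rel and Relb in the Ccr7-positive dendritic class.

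Tnf was a transcript of the myeloid classes. In the monocyte class it stood at 124, 149, 353 and 297 CPM in samples 1 to 4, with interval bounds from 115 to 366 CPM. In the neutrophil class it stood at 215, 107, 187 and 204 CPM. Sample 1 was the highest neutrophil value but the lowest monocyte value, and the ranges of the classes overlapped, so no order of these classes was read. The cells that met both the monocyte and the macrophage gate held 103, 56.9, 267 and 240 CPM, and the macrophage class held 88.3, 104, 163 and 195 CPM. In each of the 9 other classes every sample stayed at or below 35.4 CPM, which was the Ccr7-positive dendritic class in sample 1. The fibroblast class was lowest, with 3.42, 1.52, 9.17 and 3.12 CPM from 36 UMIs in all.

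The share of cells with a Tnf UMI depends on depth, so cells were also thinned to 1000 UMIs each. After thinning, 9.68%, 9.32%, 26.4% and 23.8% of monocyte-class cells carried a Tnf UMI in samples 1 to 4, and 17.8%, 9.02%, 15% and 15.8% of neutrophil-class cells did. Before thinning the shares were 31.0% to 61.4% and 21.7% to 50.2%, at median depths of 6334.5 and 4032.5 UMIs. In the fibroblast class, which should lack Tnf and had a median of 8309 UMIs, the thinned share was 0%, 0%, 1.18% and 0.671%, and the unthinned share was 1.47% to 6.21%. The 0 of 63 and 0 of 68 thinned fibroblast-class cells in samples 1 and 2 allow shares of up to 5.69% and 5.28% (exact binomial). Monocyte and neutrophil shares were thus above this background in all 4 samples. In T cell, innate lymphoid and B cell classes the thinned share was between 0% and 5.26%, a range that overlapped that of fibroblasts, and no expression was read there.

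The levels of the receptor genes were nearly unrelated over the 13 classes (Pearson r = 0.06, a description over classes that share their libraries). Tnfrsf1a, the broadly expressed receptor, had its highest median in the fibroblast class, at 138, 134, 128 and 136 CPM in samples 1 to 4. The neutrophil class held 208, 127, 103 and 80.7 CPM, so its range enclosed that of fibroblasts. Fibroblast values lay within 128 to 138 CPM, while the neutrophil value of sample 1 was over 2-fold that of sample 4. The B cell class was lowest with 4.03, 3.95, 2.96 and 5.48 CPM. After thinning, 7.35% to 12.7% of fibroblast-class cells and 0.245% to 0.940% of B cell-class cells carried a Tnfrsf1a UMI (55.7% to 75.8% and 1.56% to 2.20% unthinned, at medians of 8309 and 4486.5 UMIs).

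Tnfrsf1b, the receptor of leukocytes, was highest in the neutrophil class in each sample, at 438, 464, 616 and 547 CPM. The monocyte class followed with 295, 358, 513 and 529 CPM, overlapping in range though lower within each sample. Gamma-delta T, NK and type 1 innate, CD8 T and regulatory T classes lay close together, between 254 and 416 CPM, and their ranges overlapped. The macrophage class held only 139, 161, 201 and 247 CPM, the B cell class 82.3 to 132 CPM and the fibroblast class 34.2, 45.5, 39.9 and 37.4 CPM.

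The number of Tnfrsf1b UMIs per Tnfrsf1a UMI can be set between classes, though not read as a ratio of receptor molecules. It was 0.248, 0.341, 0.312 and 0.274 in the fibroblast class and 38.7, 55.4, 27 and 48 in the regulatory T class, the lowest and the highest of the 13 classes by median. The regulatory T ratios rest on only 6, 5, 20 and 11 Tnfrsf1a UMIs. Those of the type 2 innate lymphoid class rest on 4, 2 and 3 in samples 1, 3 and 4. The place of the regulatory T class among lymphoid classes is thus uncertain. The ratio was 2.11, 3.66, 5.99 and 6.78 in the neutrophil class and 2.55, 3.82, 7.31 and 9.54 in the monocyte class of samples 1 to 4. Sample 1 was lowest and sample 4 highest in the neutrophil, monocyte, co-positive and macrophage classes. In neutrophils and monocytes sample 1 had both the highest Tnfrsf1a and the lowest Tnfrsf1b level. No test between samples was made because the labels do not set them apart.

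**Figure D2:**
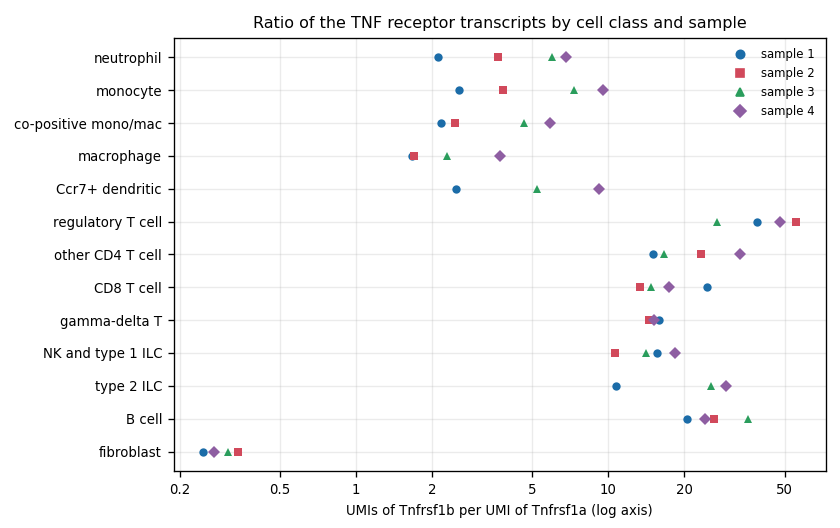
UMIs of Tnfrsf1b per UMI of Tnfrsf1a (log axis) in 13 cell classes, 1 symbol per sample. Fibroblasts lie below 1 in all 4 samples, myeloid classes between 1.66 and 9.54, and lymphoid classes at 10.6 or above.

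Among the inhibitors, Tnfaip3, which encodes a ubiquitin-editing enzyme that ends signalling from the TNF receptor, was highest in innate lymphoid and T cell classes. The type 2 innate lymphoid class was highest, with 2657, 2596 and 2542 CPM in samples 1, 3 and 4 (45 cells in sample 2, not read). The NK and type 1 innate class followed with 1778, 1961, 1585 and 1906 CPM, all below those values. Gamma-delta T cells held 1340, 1336 and 1814 CPM in samples 1, 2 and 4. CD8 T cells held 1077, 1397, 1201 and 1496 CPM, and other CD4 T cells 1023, 1175, 965 and 1408 CPM. Regulatory T cells were lower at 704, 850, 676 and 739 CPM. The monocyte class ran from 486 CPM in sample 1 to 1042 CPM in sample 4, and the B cell class was lowest with 164, 182, 247 and 320 CPM. With clusters in place of marker gates, the NK and type 1 innate class had the highest median of Tnfaip3, and the type 2 innate lymphoid median was 1740 CPM.

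Nfkbia encodes IkB-alpha, which holds NF-kB in the cytoplasm and is remade after NF-kB activation. It was highest by median in the type 2 innate lymphoid class, at 1999, 2156 and 1930 CPM in samples 1, 3 and 4. The monocyte class held 1501, 1683, 1929 and 2383 CPM, so the ranges overlapped and the highest single value was a monocyte value. Fibroblast, neutrophil and co-positive classes also held 1249 CPM or more in each sample, and the only sample with enough endothelial cells had 2180 CPM. The macrophage class held 888, 857, 1065 and 1717 CPM, with sample 4 standing above the rest. With clusters the monocyte class had the highest median. CD8 T cells were lowest by median with 479, 235, 264 and 310 CPM, next to B cells with 256, 260, 390 and 350 CPM.

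Nfkbiz encodes IkB-zeta, a nuclear IkB protein that acts with NF-kB on secondary response genes. It was highest by median in the neutrophil class, at 903, 1303, 1235 and 1387 CPM in samples 1 to 4. The type 2 innate lymphoid class held 1155, 974 and 833 CPM in samples 1, 3 and 4, overlapping that range through sample 1. The NK and type 1 innate class held 613 to 878 CPM, the fibroblast class 491 to 617 CPM and the monocyte class 395 to 715 CPM. CD8 T cells were lowest with 241, 212, 152 and 181 CPM.

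Nfkb1 and Nfkb2 encode precursors that are cut to give DNA-binding subunits, and Rel and Relb encode subunits that carry activation domains. Nfkb1 was highest in the type 2 innate lymphoid class, at 5351, 5612 and 6073 CPM in samples 1, 3 and 4. The NK and type 1 innate class held 3077, 2609, 2950 and 3326 CPM, so these classes did not overlap. With clusters in place of gates the type 2 innate lymphoid median was 3602 CPM. Gamma-delta T cells ranged from 928 to 2080 CPM, and the myeloid, Ccr7-positive dendritic, CD4 T and fibroblast classes lay between 1230 and 2340 CPM and overlapped. B cells were lowest of the 13 classes with 696, 868, 995 and 1086 CPM, and CD8 T cells held 809 to 1310 CPM. The type 2 innate lymphoid class also had the highest handling-gene sum among leukocytes, 5918 to 10012 CPM, while the NK class, next for Nfkb1 and Tnfaip3, had 2269 to 3176 CPM.

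Nfkb2, the precursor of the noncanonical route, was highest by median in the Ccr7-positive dendritic class, at 228, 224 and 193 CPM in samples 1, 3 and 4. The NK and type 1 innate class overlapped it with 233, 178, 205 and 237 CPM. The neutrophil class held 160, 188, 176 and 142 CPM. The fibroblast class was lowest by median, at 71.8, 59.2, 106 and 86.6 CPM, and overlapped the B cell range of 74.6 to 85.3 CPM.

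Rel, the subunit known for its role in lymphocytes and dendritic cells, was highest in the Ccr7-positive dendritic class, at 2014, 2129 and 2282 CPM in samples 1, 3 and 4. B cells followed with 1301, 1496, 1515 and 1469 CPM, below those values and above the other classes read in at least 3 samples. Conventional type 2 dendritic cells, with enough cells in samples 1 and 2 only, held 1345 and 1976 CPM. Fibroblasts were lowest with 154, 179, 190 and 154 CPM.

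Relb, the partner of the Nfkb2 product, was likewise highest in the Ccr7-positive dendritic class, at 623, 688 and 667 CPM. The NK and type 1 innate class came next with 358, 299, 320 and 397 CPM, well below. The fibroblast class, at 105, 112, 152 and 108 CPM, overlapped the macrophage range of 109 to 139.5 CPM and the monocyte range of 103 to 135 CPM. For Tnfaip3, Nfkb1, Rel and Relb the highest class had a range above that of every other class of the 13. Each of these highest classes was read in 3 samples only, and the share of all genes with such a gap was not counted. Clusters gave no Ccr7-positive dendritic class in 3 samples, so the Nfkb2, Rel and Relb results rest on the marker gate.

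Classes were next compared within each sample, which leaves the mice of a sample the same on both sides. A gene was counted as higher or lower where it differed by at least 2-fold, the same way, in every sample with enough cells and in at least 3 samples. Genes with at least 10 UMIs over both classes in each sample were compared, and no test was made, because cells of a sample are not replicates. All 10 genes passed this minimum in 5 of the 6 comparisons, and 9 in the comparison of NK with CD8 T cells, where Tnf had too few UMIs.

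Neutrophils, which are short-lived granulocytes, were set against monocyte, macrophage and co-positive cells together. Nfkbiz was the 1 gene of the set that was higher, with 6.62% of 11781 genes higher by this rule. Its levels were 903, 1303, 1235 and 1387 CPM in neutrophils and 345, 554, 414 and 568 CPM in the other myeloid cells, a 2.62-, 2.35-, 2.99- and 2.44-fold difference in samples 1 to 4. The groups did not overlap. With no limit on markers of other lineages in the gates, no gene of the set was higher. None of the 10 genes was lower, although 35.3% of all genes were. Tnf differed in direction between samples, at 2.02-, 0.995-, 0.698- and 0.860-fold. Tnfaip3 was at 0.820-, 1.01-, 0.599- and 0.498-fold.

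Neutrophils had a lower level than the other myeloid cells for most genes, with a median log2 ratio of -0.92 over all genes compared. Relative to that median 5 genes of the set were higher, Tnfrsf1a, Tnfrsf1b, Nfkbiz, Nfkb2 and Relb, beside 17.2% of all genes, and none was lower, beside 16.6%. Tnf, Tnfaip3 and Rel turned from a median below to a median above 0 on that scale. The handling-gene sum was 1055 to 2096 CPM in neutrophils and 2193 to 4497 CPM in the other myeloid cells, and 5 of its 10 genes were lower by the 2-fold rule. Of 64 other genes of the TNF and NF-kB pathway, from ligands to inhibitors and classical targets, 60 were compared, 4 were higher and 9 were lower. Higher were Ltb, a membrane-bound relative of TNF (median 19.5-fold), Bcl2l1, a survival gene (8.71-fold), and Cyld, a deubiquitinase (3.44-fold), besides N4bp1. Of those lower, Tnfrsf11a, the receptor for RANK ligand, was at a median of 0.0175-fold, the adhesion gene Vcam1 at 0.0338-fold and the costimulatory receptor gene Cd40 at 0.0396-fold.

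Macrophages were set against monocytes, from which gut macrophages arise. Tnfrsf1b was the 1 gene of the set that was lower, beside 1.71% of 10643 genes, and none was higher, beside 4.99%. It stood at 139, 161, 201 and 247 CPM in macrophages and 295, 358, 513 and 529 CPM in monocytes, or 0.470-, 0.450-, 0.392- and 0.467-fold. The levels of the classes did not overlap, and sample 1 was lowest and sample 4 highest in both. Tnf was at 0.713-, 0.697-, 0.462- and 0.657-fold and Nfkbia at 0.592-, 0.509-, 0.552- and 0.721-fold, lower in each sample but short of 2-fold in at least 3. Rel was at 1.44-, 1.75-, 1.10- and 1.37-fold. The handling-gene sum was 2832 to 5712 CPM in macrophages and 1857 to 3150 CPM in monocytes. The median log2 ratio of all genes was 0.20, and with that taken off Tnfrsf1a and Nfkb1 had medians below 0 in place of above. Among 58 other pathway genes compared, Vcam1 alone was higher (median 49.0-fold) and none was lower.

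Mature Ccr7-positive dendritic cells, which carry antigen to lymph nodes, were set against conventional type 1 and type 2 dendritic cells, pooled, in samples 1, 3 and 4. The mature side held 60, 272 and 77 cells and the pool 150, 82 and 51, of which 60, 43 and 22 were type 1. The part of this mix in the ratios was not tested. Relb and Nfkb2, the pair of the noncanonical route, were higher, beside 8.08% of 7835 genes. Relb stood at 623, 688 and 667 CPM against 167, 208 and 227 CPM, a 3.73-, 3.31- and 2.93-fold difference. Nfkb2 stood at 228, 224 and 193 CPM against 98.4, 94.0 and 77.5 CPM, a 2.32-, 2.37- and 2.47-fold difference. Neither overlapped between the classes. None of the 10 was lower, beside 6.25% of all genes, and Tnfrsf1a came nearest at 0.535-, 0.388- and 0.380-fold. With no limit on markers of other lineages Tnfrsf1a was lower by the rule, as it was over samples 3 and 4 alone, beside 10.2% of genes without sample 1. Rel, highest of all in the mature class, was at only 1.64-, 1.36- and 1.09-fold. The handling-gene sums overlapped, at 1803 to 2691 and 2058 to 2639 CPM.

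Among the 54 other pathway genes compared in these dendritic cells, 12 were higher and 1 was lower. Receptors of the TNF family made up 5 of the 12, namely Tnfrsf4, Tnfrsf9, Tnfrsf11a, Cd40 and Tnfrsf18. The costimulatory receptor gene Tnfrsf9 was at a median of 25.9-fold, on 9, 14 and 5 UMIs in conventional dendritic cells. Tnfrsf4, another costimulatory receptor, had 54, 150 and 63 UMIs in mature and 2, 2 and 0 UMIs in conventional cells, too few to size its fold. Adaptors and ubiquitin ligases gave 3 of 10 compared (Birc2, Traf3 and Traf2) and classical targets 4 of 12, led by Marcksl1 (8.24-fold). Plaur, the urokinase receptor gene, was lower at 0.123-fold. None of the 8 kinases, 4 other IkB proteins and 11 inhibitors compared passed 2-fold in every sample.

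Regulatory T cells, which restrain immune responses, were set against other CD4 T cells. None of the 10 genes was higher, beside 1.24% of 8622 genes, and none was lower, beside 1.03%. Tnfaip3 was lower in each sample but short of 2-fold, at 0.688-, 0.724-, 0.700- and 0.525-fold. Tnfrsf1b, for which these cells are known, stood at 328, 416, 283 and 313 CPM against 201, 263, 214 and 313 CPM, or 1.63-, 1.58- and 1.32-fold in samples 1 to 3 and level in sample 4. Nfkb1 had a median log2 ratio of 0.03, which lay below the median of all genes. Of 57 other pathway genes 1 was higher, Tnfrsf9 (median 5.57-fold), and 4 were lower, led by the ligand gene Cd40lg (0.127-fold), Plaur (0.314-fold) and Bcl2a1d (0.345-fold). Handling-gene sums were 1393 to 2180 and 1655 to 2814 CPM.

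NK and type 1 innate cells were set against CD8 T cells, the adaptive cytotoxic class. Of 9 genes compared, Nfkbiz and Nfkb1 were higher, beside 3.07% of 8326 genes, and none was lower, beside 2.37%. Nfkbiz stood at 793, 656, 613 and 878 CPM against 241, 212, 152 and 181 CPM, a 3.29-, 3.10-, 4.03- and 4.85-fold difference. Nfkb1 stood at 3077, 2609, 2950 and 3326 CPM against 1310, 809, 1064 and 1043 CPM, a 2.35-, 3.23-, 2.77- and 3.19-fold difference. Neither overlapped. Nfkbia (1.41-, 2.60-, 2.52- and 2.50-fold) and Rel (1.80-, 2.23-, 2.36- and 3.20-fold) missed the rule in sample 1 alone, and without sample 1 the count was 4, beside 3.42% of genes. The median log2 ratio over all genes was -0.17, and Tnfrsf1b, with a median of -0.01, lay above it. Handling-gene sums were 2269 to 3176 and 1754 to 2673 CPM.

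In the same comparison 55 other pathway genes gave 7 that were higher and none that was lower. They included Icam1, an adhesion gene and classical target (median 5.76-fold), and Nfkbid, another nuclear IkB protein (4.02-fold). Tnfsf14, a ligand of the lymphotoxin receptor, rested on 46, 6, 17 and 12 UMIs against 4, 19, 0 and 4 UMIs. Nfkbie, Otulin, Traf1 and Gadd45b made up the rest.

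Fibroblasts and endothelial cells together were set against all leukocyte classes. The stromal side held 87, 77, 410 and 196 cells in samples 1 to 4, of which 21, 9, 72 and 47 were endothelial. The leukocyte side held 6622, 6292, 6342 and 4529 cells in samples 1 to 4, of which 2623, 2473, 321 and 409 were B cells. The part of this make-up in the ratios was not tested. Tnf, Tnfrsf1b and Rel were lower, beside 11.5% of 14965 genes, and none of the 10 was higher, beside 16% of them. Tnfrsf1b stood at 42.7, 49.4, 42.0 and 39.8 CPM in stromal cells and 201, 201, 367 and 367 CPM in leukocytes, or 0.215-, 0.249-, 0.115- and 0.109-fold. Rel stood at 156, 198, 192 and 153 CPM against 871, 960, 661 and 700 CPM. Tnf rested on 3, 1, 40 and 9 stromal UMIs and was at 0.0411-, 0.0569-, 0.0630- and 0.0397-fold, with counting bounds of 0.00727 to 0.103 in sample 1 and 0.000960 to 0.212 in sample 2. Tnfrsf1a was higher in each sample, at 1.88-, 3.40-, 1.92- and 2.80-fold, but reached 2-fold in samples 2 and 4 only. Nfkbia was at 2.27-, 3.50-, 1.33- and 1.23-fold.

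Handling-gene sums differed most in this comparison, at 9160 to 11835 CPM in stromal cells and 2250 to 3205 CPM in leukocytes, and 8 of those 10 genes were higher by the same rule. All 64 other pathway genes were compared, of which 3 were higher and 27 lower. The adhesion genes Vcam1 (median 11.5-fold) and Icam1 (4.14-fold) and the lymphotoxin receptor gene Ltbr (3.24-fold) were the 3 that were higher. The survival genes Bcl2a1b (0.0144-fold) and Bcl2a1d (0.0247-fold) and Ltb (0.0313-fold) had the lowest medians, each on 11 stromal UMIs or fewer in a sample.

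**Figure D3:**
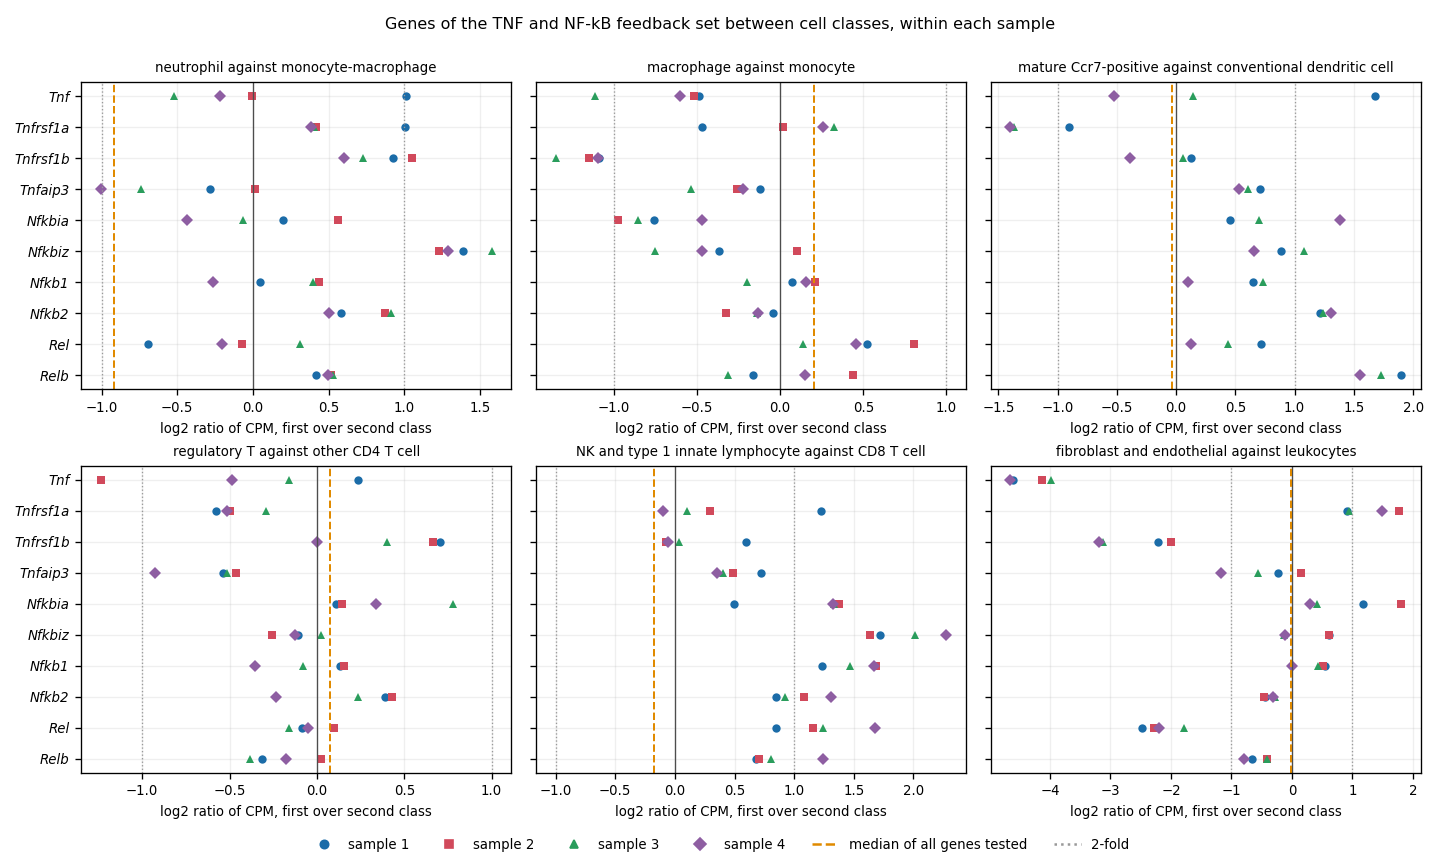
Log2 ratio of CPM between the cell classes named above each panel, for each of the 10 genes, 1 symbol per sample, with the 2-fold lines dotted and the median of all genes compared dashed. Nfkbiz lies beyond the right dotted line in the neutrophil and NK panels, Relb and Nfkb2 in the dendritic panel, and Tnfrsf1b beyond the left one in the macrophage and stromal panels.

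Within the myeloid classes, cells with a Tnf UMI were then set against cells without one after thinning each to 1000 UMIs, in samples with at least 50 cells on both sides. Thinning moved cells with Tnf to the negative side. Among the 1196 monocyte-class cells of sample 3, for example, 734 had a Tnf UMI before thinning and 316 after. The folds are therefore not the full difference between cells with and without Tnf. Tnf chose the cells, so its own level is no result, and the other 9 genes were compared. None was 2-fold higher in every sample of a class, beside 0.0229% of all genes in neutrophils, 0.0581% in monocytes, 0.04% in co-positive cells and 0.249% in macrophages. A difference of any size in the same direction in every sample was therefore counted too. The share of all genes beside it was counted for the higher direction only.

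In neutrophils, with 207, 55, 321 and 211 Tnf-positive cells, 6 of 9 genes were higher in all 4 samples, beside 12.1% of 4372 genes. They were Tnfrsf1b, Tnfaip3, Nfkbia, Nfkbiz, Nfkb1 and Relb. Nfkbia stood at 2454, 3364, 2327 and 2365 CPM in positive cells and 1559, 1602, 1436 and 1513 CPM in negative cells, a 1.58-, 2.10-, 1.62- and 1.56-fold difference. All 4 counting intervals of these folds lay above 1, the lowest bound being 1.41. Tnfaip3 was at 1.66-, 1.81-, 1.71- and 1.21-fold and Nfkb1 at 1.30-, 1.27-, 1.03- and 1.08-fold. Intervals lay above 1 in 3 of 4 samples for Tnfaip3 and Nfkbiz, in 2 for Nfkb1, in 1 for Tnfrsf1b and in 0 for Relb, so Relb did not differ beyond counting error in any sample. Tnfrsf1a went the other way in each sample, at 0.898-, 0.906-, 0.781- and 0.761-fold, but all 4 intervals included 1. Of 44 other pathway genes compared, 21 were higher in all 4 samples and 1, Plaur, was lower. Icam1 was 2.28-, 3.18-, 2.30- and 2.45-fold higher and Nfkbid 2.28-, 2.49-, 1.64- and 2.09-fold higher, 2 genes singled out after their values were seen.

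In monocytes, with 66, 316 and 131 Tnf-positive cells in samples 1, 3 and 4, 6 of 9 genes were higher in every sample, beside 15.2% of 5167 genes. They were Tnfrsf1a, Tnfrsf1b, Tnfaip3, Nfkbia, Nfkbiz and Nfkb1. Nfkbiz was at 1.87-, 1.43- and 1.56-fold and Nfkbia at 1.48-, 1.27- and 1.18-fold, and all 3 intervals of both lay above 1. No interval of Tnfrsf1a or Tnfrsf1b did, and 2 of 3 did for Tnfaip3 and Nfkb1. In co-positive cells of the same samples 5 of 9 were higher, beside 14.6% of 4999 genes, with Nfkbia at 1.53-, 1.37- and 1.5-fold. Without sample 4 the count in co-positive cells was 8, beside 28.4% of genes over the 2 samples left. In macrophages of samples 2, 3 and 4 the 3 genes Nfkbia, Nfkbiz and Nfkb1 were higher, beside 15.6% of 6036 genes. Without sample 2 the count in macrophages was 6, beside 26.7% of genes over the 2 samples left. Nfkbiz there was at 1.74-, 2.32- and 1.31-fold and Nfkbia at 1.42-, 1.31- and 1.32-fold. Nfkbia, Nfkbiz and Nfkb1 were the genes counted as higher in all 4 classes, but the intervals lay above 1 in every sample for Nfkbia only. Nfkb1 was within counting error of no difference in neutrophil samples 3 and 4, in monocyte sample 3 (1.02-fold, 0.919 to 1.13) and in co-positive samples 1 (1.02-fold, 0.809 to 1.25) and 3. Nfkbiz was so in neutrophil sample 4, co-positive sample 1 (1.12-fold, 0.690 to 1.69) and macrophage sample 4.

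Handling genes moved with this split as well. Junb and Dusp1 were higher in every sample of all 4 classes, Junb by 1.11- to 1.52-fold and Dusp1 by 1.01- to 1.58-fold. By the same count 2 of 8 handling genes compared were higher in neutrophils, 2 of 8 in monocytes, 5 of 8 in co-positive cells and 5 of 10 in macrophages. Their part in the result was not tested. Tnf-positive macrophages of sample 2 stood apart, with Egr1 at 4.28-, Jun at 2.88-, Hspa1a at 2.57-, Fos at 2.45- and Ier2 at 2.31-fold. In samples 3 and 4 Egr1 was at 2.05- and 1.48-fold and Jun at 1.18- and 0.847-fold. These genes were singled out after their values were seen. Of the other pathway genes, 19 of 46 were higher in every sample in monocytes, 15 of 44 in co-positive cells and 12 of 48 in macrophages. Lower in every sample were 1, 2 and 6, with no share of all genes to set beside them. Sod2, Bcl2a1b, Cflar, Zfp36 and Ptgs2 were among the higher genes in all 4 classes.

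**Figure D4:**
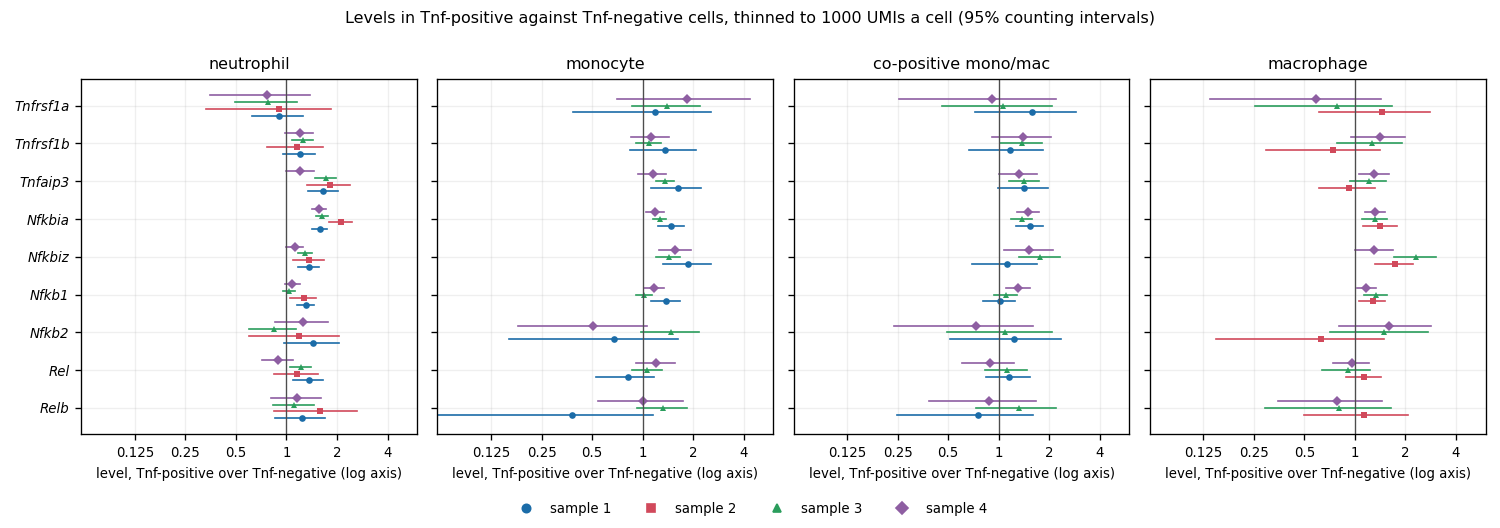
Level in Tnf-positive over Tnf-negative cells of 4 myeloid classes (log axis) for the other 9 genes, cells thinned to 1000 UMIs, 1 symbol per sample with its 95% counting interval. Nfkbia lies to the right of 1 with its whole interval in every sample shown, while Rel and Nfkb2 lie on both sides of 1 in each of the 4 classes.

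Among levels with at least 10 UMIs in every sample, the largest relative range between samples was that of Tnf. It was 2.01-fold from the lowest to the highest sample in neutrophils, 2.85-fold in monocytes, 4.69-fold in co-positive cells and 2.21-fold in macrophages. Samples 3 and 4 held the higher values in the last 3 of these classes, and sample 1 in neutrophils. Tnfrsf1a ranged 2.57-fold in neutrophils and 2.08-fold in monocytes, both times with sample 1 highest and sample 4 lowest. Tnfaip3 ranged 2.14-fold in monocytes and 2.02-fold in fibroblasts, in the first with sample 4 highest and in the second with sample 2 highest. Over the 10 classes present in all samples, 12 levels with that minimum ranged 2-fold or more, all of them of Tnf, Tnfrsf1a, Tnfaip3 or Nfkbia. Tnf missed the minimum in several classes and was not counted there. In the NK and type 1 innate class, for example, it ran from 4.11 to 25.4 CPM on 24 UMIs in all. The share of all genes with such a range was 26.8% in neutrophils, 18% in monocytes, 18% in co-positive cells and 19.4% in macrophages, and from 9.59% in B cells to 31.5% in fibroblasts. Of the 10 feedback genes, 2, 3, 1 and 2 had such a range in the first 4 of those classes, which is near the share of all genes. The median range of the set was 1.48-fold in neutrophils, against 1.64-fold over all genes, and 1.84-fold in macrophages, against 1.51-fold.

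**Figure D5:**
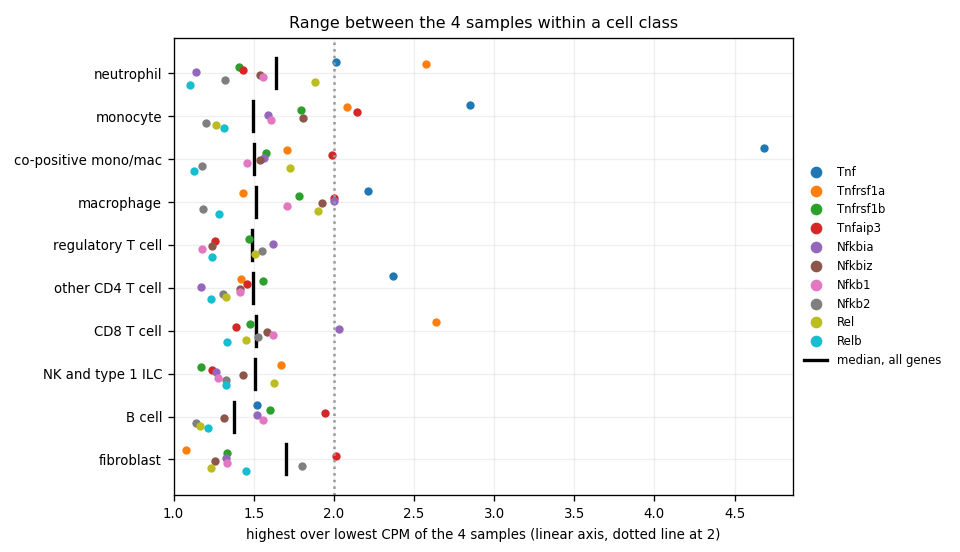
Highest over lowest CPM of the 4 samples (coloured points) in the 10 classes with enough cells in all 4 samples, for genes with at least 10 UMIs in every sample. The axis is linear, with a dotted line at 2 and a black bar at the median of all genes. Tnf in co-positive cells, at 4.69, is farthest to the right, and most points lie near the bars.

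Each gene's pattern over the 13 classes was matched to all 9390 genes with at least 20 CPM in a class, by Pearson correlation of log2(CPM + 1) medians. These are descriptions over 13 points that share their 4 libraries. Tnf was closest to Lrrc25 (0.98), Mefv (0.97) and Pla2g7 (0.97). Tnfrsf1a was closest to Mapk3, Man1c1 and Pld1 (0.92 to 0.94), and Tnfrsf1b to Arhgap9, Cyth4 and Gmfg (0.91 to 0.94). Tnfaip3 was closest to 4833438C02Rik, Slk and Gm16201 (0.87 to 0.92), and Nfkbia to Stom, Dusp1 and Jdp2 (0.85 to 0.86). Dusp1 is 1 of the 10 handling genes. Nfkbiz was closest to Casp4 (0.88), Gm14286 and Pdlim7, and Nfkb1 to Gm11639 (0.87), Csf2 and Mpp7. Nfkb2 was closest to Cpne1 (0.86), Cep83 and Gm10851, Rel to Scamp2 (0.92), Smndc1 and Cd83, and Relb to Map3k14 (0.92), Gm47662 and Rspry1. Map3k14 encodes the kinase that starts the noncanonical route. Among pairs within the set, Nfkb2 with Relb (0.78) and Nfkbia with Nfkbiz (0.75) were the closest, and Tnfrsf1a with Relb (-0.47) the farthest.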

How the data were processed

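Single-cell RNA libraries of CD45+ colonic cells from 4 samples of DSS-treated mice were used. The values the authors deposited are UMI counts as whole numbers for every gene in each called cell, with no scaling, and the matrix header gives Cell Ranger 7.0.1. The submitters' processing notes name Cell Ranger 5.0.0, STAR, Seurat and mm10. The annotation and the use of strand in counting are not given in the sources used here. The labels assign no sample to a genotype, file names were not used to assign one, and no p-value was computed.

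Cells needed at least 200 detected genes and less than 20% of UMIs from mitochondrial genes. Likely doublets were taken out by their Scrublet score (scanpy 1.11.5), at 0.8% for each 1000 cells of a sample. Cells were gated on marker lists, and the numbers of markers required were set on marker values and cell numbers alone. Of the cells kept, 46 met several gates and got no class. The genes reported and the marker and pathway lists were chosen with earlier results of these data known. The 64 pathway genes comprise 6 ligands and release factors, 7 receptors, 11 adaptors and ubiquitin ligases, 9 kinases, Rela, 4 other IkB proteins, 13 inhibitors and 13 classical targets. Named are all 10 genes, the 3 pathway genes of largest median ratio per direction in a comparison, and the 3 genes closest to each of the 10. Further genes were named after their values were seen.

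UMIs were summed per class and sample. Ratios add 0.5 UMI to each sum. Intervals are 95% exact Poisson or exact binomial and cover counting error only. At the totals of 72509408 to 135516016 UMIs per sample, low levels such as Tnf in lymphocytes rest on few UMIs. Of 32285 identifiers, 32235 are in GENCODE M21. Alternatives changed cell filters, doublet removal, gates, clusters (Leiden), denominator, centring, pseudocount, minimum UMIs, thinning and samples. Steps were tested on simulated data. Other tools were Python 3.11.15, numpy 2.4.6, scipy 1.17.1, pandas 2.3.3, igraph 0.11.9, leidenalg 0.10.2, scikit-learn 1.9.0 and matplotlib 3.10.9.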

Additional observations from a re-analysis of the deposited data

How the results depend on the processing

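Of the summary counts recomputed under 15 other settings, 215 equalled the reported count or stayed close to it, and 7 moved further. The 215 include counts of 0 that stayed at 0, and which genes made up a count was not compared. Of the median levels 55 stayed within the range of the samples and 12 moved outside it. A count or median that could not be formed under a setting was not scored. With clusters in place of gates the class of highest level was kept for 5 of 10 genes. Tnfaip3, Nfkb2 and Relb then had it in the NK and type 1 innate class, Nfkbia in the monocyte class and Rel in the conventional type 2 dendritic class. No cluster gave a Ccr7-positive dendritic class in 3 samples, so that class had no value there. Nfkb1 in the type 2 innate lymphoid class then had a median of 3602 CPM and Tnfaip3 one of 1740 CPM. With no limit on markers of other lineages, 0 genes were higher in neutrophils and 1, Tnfrsf1a, was lower in Ccr7-positive dendritic cells. Centred on the median of all genes, 5 were higher in neutrophils. The causes were not tested, except that centring by its construction removes the lower level of most genes in neutrophils.

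Leaving out each sample in turn was added after seeing the data, as were the alternatives for the range between samples. It gave 2 to 4 genes higher in NK against CD8 T cells, with 4 without sample 1. It gave 3 to 6 genes higher in Tnf-positive macrophages, with 6 without sample 2, and 5 to 8 in co-positive cells, with 8 without sample 4, where fewer samples have to agree. Plasma cells against B cells had 2 samples and type 3 against type 2 innate lymphoid cells had 0, so neither was run. Under clusters the first gave 1 gene higher and 3 lower, and with no lineage limit 0 higher and 8 lower. The share of all genes was not counted beside these, so nothing about the set was read from them. Classes were compared within each sample, and no test over samples was made because the labels put no sample in a group. Counting limits Tnf in the classes where it is low, such as fibroblasts with 36 UMIs and type 2 innate lymphoid cells with 14 UMIs over the samples read.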
